A study of Mus musculus with 6 samples.

Results

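The mRNAs described here encode 41 proteins of the chemical synapse, from the membrane of the synaptic vesicle to the scaffold under the postsynaptic membrane. They were chosen by gene symbol, but with earlier results of these data known. All 41 were found by Ensembl gene ID among the 18437 protein-coding mRNAs listed in at least 1 of 6 mouse Ribo-seq libraries. By role they comprised 13 vesicle membrane and vesicle-bound proteins, 5 enzymes and vesicular transporters of transmitters, 6 proteins of the fusion machinery and of vesicle retrieval, 5 active zone proteins, 8 postsynaptic scaffold and adhesion proteins, and 4 proteins of calmodulin signalling and the growth cone.

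At a chemical synapse, vesicles are filled with transmitter, docked at the active zone and fused with the plasma membrane when calcium enters the terminal. Fusion is driven by SNARE proteins on the vesicle and on the plasma membrane, calcium is sensed by synaptotagmins, and the vesicle membrane is then retrieved by endocytosis. On the opposite side, receptors are held in place by a lattice of scaffold proteins of the PSD-95, SAPAP, Shank and Homer families. Much of this machinery is characteristic of neurons in the brain, but neurons of the gut wall, autonomic ganglia and secretory cells use many of the same proteins, and some members have paralogs that serve membrane traffic in most cells.

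Ribo-seq, in which mRNA fragments covered by translating ribosomes are sequenced, was performed on lysates of whole tissues from untreated wild-type C57BL/6J mice aged 4 weeks. Single libraries were labelled small intestine, lung, kidney, heart, colon and brain. The lysis buffer contained cycloheximide, and the number of mice behind each library is not given in the sources used here. Ribosome density is given as RPKM, the reads on a coding sequence (CDS) scaled by its length and by the reads on all CDSs, so levels of different mRNAs can be compared within a library.

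The labels of 4 libraries went against tissue markers, and each library is therefore named by its label only, as the colon-labelled library or as a value under the colon label. The 8 oligodendrocyte markers were all at least 4-fold higher in the library labelled small intestine than in each of the others. So were 10 of 12 general neuronal, 5 of 7 astrocyte and 5 of 8 cortical and hippocampal markers. Of cerebellar markers 3 of 7 were, and of microglial markers only 1 of 6. The share was 9.28% over all mRNAs with at least 10 reads in at least 1 library. Microglial markers summed to 472 RPKM there and 616 RPKM under the colon label. The summed density of 6 small intestine epithelial markers was 29123 RPKM in the brain-labelled library and at most 1164 RPKM elsewhere. Kidney tubule markers were highest in the colon-labelled library, at 21255 RPKM summed, and colon epithelial markers were highest in the kidney-labelled library, at 3411 RPKM summed. Heart and lung markers were highest under their own labels. Between 4504853 and 10635031 reads per library were recovered from the RPKM values, and 1 mRNA, Kri1, took between 0.400% and 22.1% of them. Since each tissue label has 1 library, the spread between replicates is unknown. Intervals given below are exact 95% intervals of the counting error of reads, which are not independent molecules, and no test between tissues was made.

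The synaptic mRNAs took 3.32% of all reads in the small intestine-labelled library (254033 of 7644645 reads, Clopper-Pearson interval 3.31% to 3.34%) and between 0.0217% and 0.0780% in the other 5. All 41 had at least 10 reads there, where 67.0% of all listed mRNAs did. Under the kidney and heart labels 28 and 27 members reached 10 reads, beside 64.1% and 61.8% of all listed mRNAs. Under the brain, lung and colon labels 16, 15 and 13 members did, beside 52.5%, 55.4% and 55.9%. The members that reached 10 reads only in the small intestine-labelled library were Syt2, Gad2, Stx1a, Unc13a, Dlgap1 and Nlgn1. In Ribo-seq of whole tissue, fewer cells of a type, less RNA per cell and fewer ribosomes per mRNA cannot be told apart.

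A member was called higher where its RPKM was at least 4 times that of the other library, with a value of 0 replaced by the RPKM that 3 reads would give. Against the brain-labelled library 41 of 41 members were called, beside 33.0% of the 15202 mRNAs with at least 10 reads in at least 1 library. The counts were 39 against the colon-labelled library (22.0% of all), 39 against that labelled heart (21.3%), 40 against that labelled kidney (22.3%) and 39 against that labelled lung (26.6%). Against each of the other 5 libraries at once, 36 of 41 members were called, beside 9.28% of all. The exceptions were Syngr1, Syn3, Shank2, Shank3 and Homer1. With members at 0 reads set to the RPKM of 3 reads, the median fold of the members was 87.2 against the kidney-labelled and 96.8 against the heart-labelled library, where 2 members each had 0 reads. It was 143 against the colon-labelled library (12 members at 0 reads), 316 against that labelled brain (13) and 320.2 against that labelled lung (18). The median over all mRNAs tested ranged from 1.01 to 1.46.

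**Figure D1:**
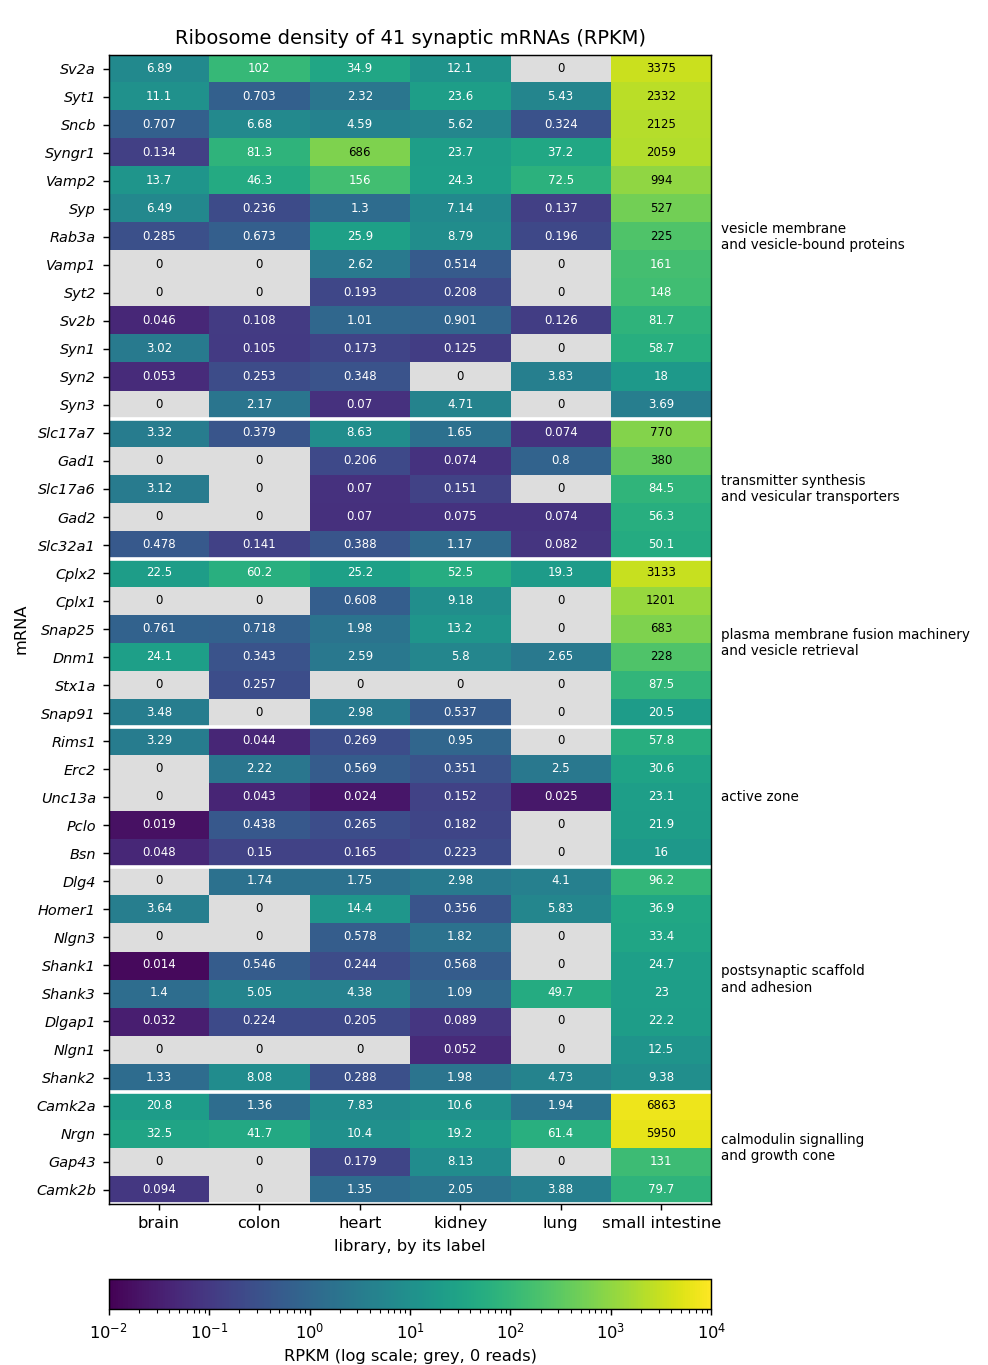
Ribosome density of each synaptic mRNA (rows, grouped by role) in each library (columns, by label), in RPKM, with colour on a log scale and grey for 0 reads. The column labelled small intestine holds the highest value of its row for 39 mRNAs, and Syn3 and Shank3 are higher in the columns labelled kidney and lung.

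Vesicle membrane proteins held 4 of the 7 highest densities among the members. Sv2a, a vesicle glycoprotein that binds the antiepileptic levetiracetam, had 3375 RPKM from 57425 reads in the small intestine-labelled library, 102 RPKM under the colon label, 34.9 RPKM under the heart label, 12.1 RPKM under the kidney label and 6.89 RPKM under the brain label. It had 0 reads in the lung-labelled library, where 3 reads would give 0.174 RPKM. Its density was 33.1-fold that of the colon-labelled library (31.2 to 35.3). Against the lung-labelled library it was 19356-fold the value of 3 reads, and the lower limit of the counting interval was 15741-fold. It was the member of highest density among those with 0 reads in some other library.

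Syt1, the main calcium sensor of fast release, had 2332 RPKM in the small intestine-labelled library, and 11.1, 0.703, 2.32, 23.6 and 5.43 RPKM in those labelled brain, colon, heart, kidney and lung. The closest library was that labelled kidney, at 98.8-fold lower density (86.7 to 113). Sncb, or beta-synuclein, had 2125 RPKM against 0.707, 6.68, 4.59, 5.62 and 0.324 RPKM in the same order. Sncb thus had 17 reads or fewer in each of the other 5 libraries, whereas Syt1 had 226 reads under the kidney label and 149 under the brain label.

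Syngr1, or synaptogyrin 1, behaved differently. It had 2059 RPKM in the small intestine-labelled library but also 686 RPKM, from 3938 reads, under the heart label, a ratio of 3.00 (2.90 to 3.12). Elsewhere it had 81.3 RPKM (colon-labelled), 37.2 RPKM (lung-labelled), 23.7 RPKM (kidney-labelled) and 0.134 RPKM from 1 read (brain-labelled). Vamp2, the vesicle SNARE, was the only member over 10 RPKM in all 6 libraries besides Cplx2 and Nrgn. Its density was 994 RPKM in the small intestine-labelled library, 156 RPKM under the heart label, 72.5 RPKM under the lung label, 46.3 RPKM under the colon label, 24.3 RPKM under the kidney label and 13.7 RPKM under the brain label. The ratio to the heart-labelled library was 6.35 (5.84 to 6.93).

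Syp, or synaptophysin, had 527 RPKM in the small intestine-labelled library, with 7.14 RPKM under the kidney label and 6.49 RPKM under the brain label, against 1.30, 0.236 and 0.137 RPKM in those labelled heart, colon and lung. Rab3a, the small GTPase of vesicle docking, had 225 RPKM there and 25.9 RPKM in the heart-labelled library, a ratio of 8.69 (7.28 to 10.4), and 8.79, 0.673, 0.285 and 0.196 RPKM in those labelled kidney, colon, brain and lung. Syp and Rab3a therefore differed in which library came next. The 4 vesicle mRNAs with densities from 58.7 to 161 RPKM, namely Syn1, Sv2b, Syt2 and Vamp1, stayed at or below 3.02 RPKM elsewhere.

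The synapsins, which tether vesicles to each other and to actin, spanned the lowest densities of the vesicle group. Syn2 had 18.0 RPKM in the small intestine-labelled library and 3.83 RPKM, from 52 reads, under the lung label (ratio 4.71, 3.48 to 6.48), with 0.348, 0.253 and 0.0535 RPKM in those labelled heart, colon and brain and 0 reads under the kidney label. Syn3 had 3.69 RPKM from 49 reads in the small intestine-labelled library, 4.71 RPKM from 62 reads under the kidney label and 2.17 RPKM from 17 reads under the colon label. The intervals of both Syn3 ratios, 0.528 to 1.16 and 0.961 to 3.15, included 1. Syn3 had 1 read (0.0704 RPKM) in the heart-labelled library and 0 in those labelled brain and lung.

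All 5 mRNAs for transmitter synthesis and vesicular transport were called against every other library. Slc17a7, the vesicular glutamate transporter VGLUT1, had 770.3 RPKM in the small intestine-labelled library, 8.63 RPKM under the heart label, 3.32 RPKM under the brain label, 1.65 RPKM under the kidney label, 0.379 RPKM under the colon label and 0.0737 RPKM under the lung label. Slc17a6, which encodes VGLUT2, had 84.5 RPKM there and 3.12 RPKM from 58 reads in the brain-labelled library, with 0.151 RPKM under the kidney label, 0.0700 RPKM under the heart label and 0 reads in those labelled colon and lung. Gad1, an enzyme of GABA synthesis, had 380.1 RPKM there, 0.800 RPKM from 11 reads in the lung-labelled library, 0.206 and 0.0741 RPKM in those labelled heart and kidney, and 0 reads in those labelled brain and colon. Glutamatergic and GABAergic mRNAs were thus both present in the small intestine-labelled library. Gad2 had 56.3 RPKM there and at most 1 read in any other library, and Slc32a1, the vesicular GABA transporter, had 50.1 RPKM there and at most 1.17 RPKM elsewhere.

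The plasma membrane fusion machinery was led by the complexins, which clamp and assist SNARE assembly. Cplx2 had 3133 RPKM in the small intestine-labelled library and 22.5, 60.2, 25.2, 52.5 and 19.3 RPKM in those labelled brain, colon, heart, kidney and lung. Cplx1 had 1201 RPKM there, 9.18 RPKM from 28 reads under the kidney label, 0.608 RPKM from 2 reads under the heart label and 0 reads in the other 3. The 2 complexins therefore differed outside that library, since Cplx2 had between 60 and 160 reads in every other library. Of 375 sequences of 28 bases in each CDS, about the length of a footprint, 5 occurred in the transcript of the other. Few reads of one could therefore be ascribed to the other.

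Snap25, the plasma membrane SNARE that is cut by botulinum toxin A, had 683 RPKM from 3227 reads in the small intestine-labelled library. It had 13.2 RPKM from 62 reads under the kidney label, a ratio of 51.6 (40.2 to 67.5), and 1.98, 0.761 and 0.718 RPKM in those labelled heart, brain and colon, with 0 reads under the lung label. Stx1a, its syntaxin partner, had 87.5 RPKM from 578 reads there and was otherwise seen as 1 read, in the colon-labelled library. Dnm1, the dynamin of nerve terminals, had 228 RPKM there and 24.1 RPKM from 664 reads in the brain-labelled library, a ratio of 9.48 (8.73 to 10.3), and 5.80, 2.65, 2.59 and 0.343 RPKM in those labelled kidney, lung, heart and colon. Snap91, the clathrin assembly protein AP180, had 20.5 RPKM there, 3.48 RPKM in the brain-labelled library (ratio 5.90, 4.73 to 7.41), 2.98 RPKM under the heart label, 0.537 RPKM under the kidney label and 0 reads in those labelled colon and lung. The retrieval mRNAs thus had the smallest ratios of this group to the brain-labelled library.

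Active zone mRNAs were the lowest group on the presynaptic side, with a median of 23.1 RPKM in the small intestine-labelled library, but their long CDSs gave 7824 reads in all. Rims1, which links vesicles to calcium channels, had 57.8 RPKM there, 3.29 RPKM from 175 reads under the brain label, 0.950, 0.269 and 0.0444 RPKM in those labelled kidney, heart and colon, and 0 reads under the lung label. Erc2, a cytomatrix protein, had 30.6 RPKM there, 2.50 RPKM under the lung label (ratio 12.3, 9.37 to 16.3), 2.22 RPKM under the colon label, 0.569 and 0.351 RPKM in those labelled heart and kidney, and 0 reads under the brain label. Rims1 and Erc2 thus had opposite patterns in the brain- and lung-labelled libraries. Unc13a, the vesicle priming factor Munc13-1, had 23.1 RPKM from 918 reads there, 0.152 RPKM from 6 reads under the kidney label, 0.0427, 0.0249 and 0.0235 RPKM from 1 read each in those labelled colon, lung and heart, and 0 reads under the brain label. The giant scaffolds Pclo and Bsn, with CDSs of 15204 and 11826 bases, had 21.9 and 16.0 RPKM there and at most 0.438 RPKM elsewhere.

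Postsynaptic scaffold and adhesion mRNAs had a median of 23.9 RPKM in the small intestine-labelled library, and 5 of 8 were called against all others. Dlg4, which encodes PSD-95, had 96.2 RPKM there, 4.10 RPKM under the lung label (ratio 23.5, 18.5 to 30.1), 2.98 RPKM under the kidney label, 1.75 RPKM under the heart label, 1.74 RPKM under the colon label and 0 reads under the brain label. Nlgn3, an adhesion protein that binds neurexins, had 33.4 RPKM there, 1.82 RPKM from 35 reads under the kidney label, 0.578 RPKM from 12 reads under the heart label and 0 reads in the other 3. Neither came within 18-fold of the small intestine-labelled library elsewhere.

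The Shank and Homer scaffolds included 3 of the 5 exceptions. Shank3 had 49.7 RPKM from 1993 reads in the lung-labelled library and 23.0 RPKM from 914 reads under the small intestine label, so the lung-labelled value was 216% of the latter (199% to 233%). It had 5.05, 4.38, 1.40 and 1.09 RPKM in those labelled colon, heart, brain and kidney. Shank2 had 9.38 RPKM in the small intestine-labelled library, 8.08 RPKM under the colon label, 4.73 RPKM under the lung label, 1.98 RPKM under the kidney label, 1.33 RPKM under the brain label and 0.288 RPKM under the heart label. The interval of the ratio to the colon-labelled library, 0.977 to 1.38, included 1. Shank1, by contrast, had 24.7 RPKM in the small intestine-labelled library and at most 0.568 RPKM elsewhere. Homer1, which also serves calcium signalling in muscle, had 36.9 RPKM in the small intestine-labelled library and 14.4 RPKM from 131 reads under the heart label, a ratio of 2.56 (2.08 to 3.16). Its other values were 5.83, 3.64 and 0.356 RPKM in the libraries labelled lung, brain and kidney, with 0 reads under the colon label. Dlgap1 and Nlgn1 had 22.2 and 12.5 RPKM in the small intestine-labelled library and at most 0.224 RPKM elsewhere.

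The 2 highest members belonged to calmodulin signalling. Camk2a, the kinase subunit of postsynaptic plasticity, had 6863 RPKM from 76963 reads in the small intestine-labelled library, where it ranked 6 among all mRNAs, and 20.8, 1.36, 7.83, 10.6 and 1.94 RPKM in those labelled brain, colon, heart, kidney and lung. Nrgn, or neurogranin, which holds calmodulin in dendritic spines, ranked 7 there with 5949.6 RPKM and had 61.4 RPKM in the lung-labelled library, 41.7 RPKM under the colon label, 32.5 RPKM under the brain label, 19.2 RPKM under the kidney label and 10.4 RPKM under the heart label. Gap43, a growth cone protein, had 131 RPKM there, 8.13 RPKM from 42 reads under the kidney label (ratio 16.1, 11.8 to 22.5), 1 read (0.179 RPKM) under the heart label and 0 in the others. Nrgn was thus measured in every library and Gap43 almost only in those labelled small intestine and kidney. Camk2b had 79.7 RPKM in the small intestine-labelled library and at most 3.88 RPKM elsewhere.

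Nrgn has the shortest CDS of all members, and its sequence is shown because 10643 reads of the small intestine-labelled library fell on these 234 bases alone. The gene lies on the minus strand of GRCm39 at chr9:37452275-37464689. In the coding sequence below, read from the GENCODE transcript without its stop codon, capitals mark the start codon.
Nrgn coding sequence: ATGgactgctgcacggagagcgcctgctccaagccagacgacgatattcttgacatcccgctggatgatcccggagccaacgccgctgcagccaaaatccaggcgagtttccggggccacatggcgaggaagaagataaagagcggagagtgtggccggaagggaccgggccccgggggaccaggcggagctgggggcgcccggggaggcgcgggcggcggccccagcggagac

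**Figure D2:**
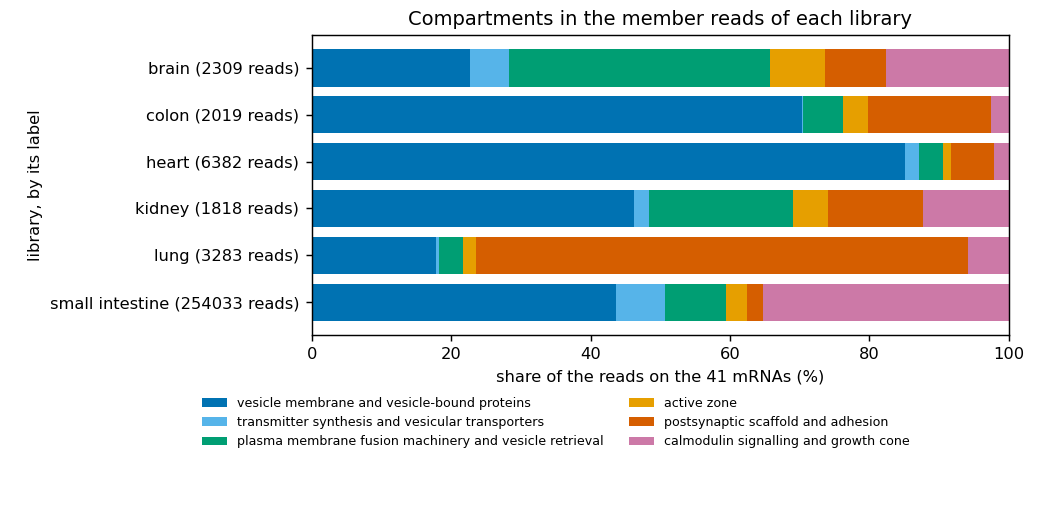
Share of the reads on the 41 synaptic mRNAs that each role took, in percent, in each library by label, with the number of such reads in brackets; reads are not scaled by CDS length. Calmodulin signalling and growth cone mRNAs took 35.2% in the small intestine-labelled library, and postsynaptic scaffolds took 70.6% under the lung label against 2.34% under the small intestine label.

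The roles took unequal shares of the member reads in different libraries, as the plot of shares by role shows. In the small intestine-labelled library, vesicle proteins took 43.6% and calmodulin signalling with the growth cone took 35.2%. Elsewhere a single mRNA often led. Syngr1 alone made up 61.7% of the member reads in the heart-labelled library, Shank3 60.7% under the lung label and Sv2a 50.6% under the colon label. The kidney-labelled library had no such leader, since its first member, Syt1, took 12.4%, and in the brain-labelled library Dnm1 took 28.8%.

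Within the small intestine-labelled library, paralogs of the same role differed in density by up to 86.1-fold. Camk2a stood 86.1-fold (81.4 to 91.2) above Camk2b, Sv2a 41.3-fold (39.1 to 43.7) above Sv2b, and Syt1 15.7-fold (14.9 to 16.6) above Syt2. The glutamate transporters differed by 9.12-fold in favour of Slc17a7 (8.57 to 9.70), the GABA-synthesising enzymes by 6.75-fold in favour of Gad1 (6.26 to 7.30) and the vesicle SNAREs by 6.19-fold in favour of Vamp2 (5.69 to 6.74). Smaller ratios were found for Syn1 over Syn2 at 3.26 (2.83 to 3.77), Nlgn3 over Nlgn1 at 2.67 (2.30 to 3.10) and Cplx2 over Cplx1 at 2.61 (2.51 to 2.71). Of 14 paralog ratios, only that of Shank1 over Shank3, at 1.07 (0.983 to 1.17), had an interval that included 1. Of the 41 members, 10 had a CDS that shared any run of 28 bases with the transcript of another listed mRNA. No member shared more than 1.33% of its runs.

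**Figure D3:**
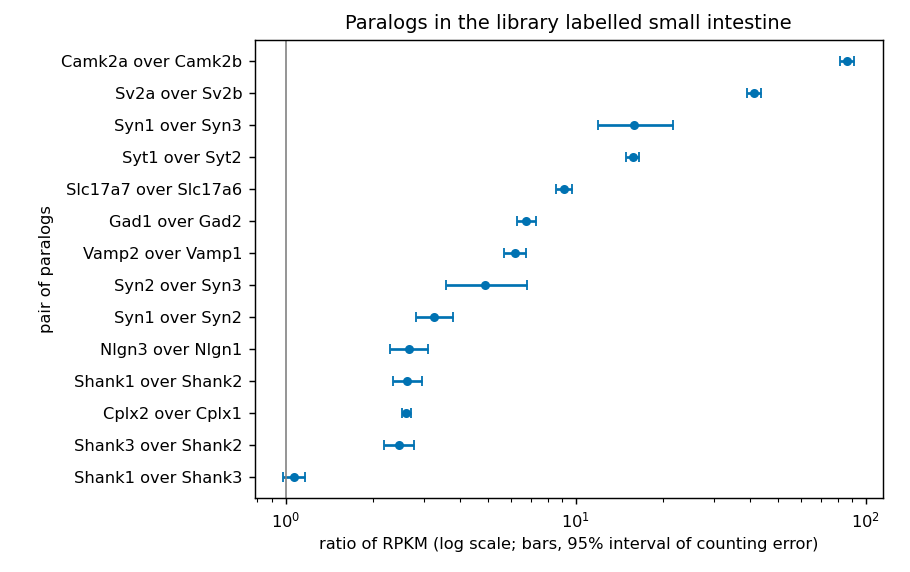
Ratio of RPKM between paralogs within the small intestine-labelled library, on a log axis, with points for the ratio and bars for the 95% interval of counting error. The ratios run from 1.07 for Shank1 over Shank3, whose bar crosses 1, to 86.1 for Camk2a over Camk2b.

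Several members have a paralog that serves membrane traffic or signalling in most cell types, and 10 such pairs were compared, a choice made after values had been seen. Snap25 had 15.8 times the density of Snap23 in the small intestine-labelled library (13.8 to 18.2), but the ratio was 0.109 (0.0828 to 0.142) under the kidney label and at most 0.0112 in the other 4. Vamp2 over Vamp3 was 4.58 (4.17 to 5.03) there and between 0.0372 and 0.254 elsewhere. The same side change, from above 1 in the small intestine-labelled library to below 1 in all others, was found for Stx1a over Stx4a (6.43 there), Dnm1 over Dnm2 (23.4), Camk2a over Camk2d (133), Unc13a over Unc13b (25.3), Erc2 over Erc1 (2.81) and Dlg4 over Dlg1 (4.93).

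Syngr1 and Rab3a were exceptions to this. Syngr1 over Syngr2 was 392 (269 to 595) in the small intestine-labelled library, 15.4 (13.6 to 17.7) under the heart label and 7.69 (5.31 to 11.5) under the colon label. Under the lung label, where Syngr2 had 0 reads, it was 64.5 with Syngr2 set to 3 reads, and the lower limit of the interval was 51.9. In the kidney-labelled library the ratio was 1.21 (0.920 to 1.58), and under the brain label it was 0.0957 from 1 read of Syngr1 and 10 of Syngr2. Rab3a over Rab3d was 377 there, with 3 reads of Rab3d, and 3.48 (2.44 to 5.08) in the heart-labelled library. It was 0.391 (0.269 to 0.559) under the kidney label. Syngr1 and Rab3a thus exceeded their paralogs in the heart-labelled library too.

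**Figure D4:**
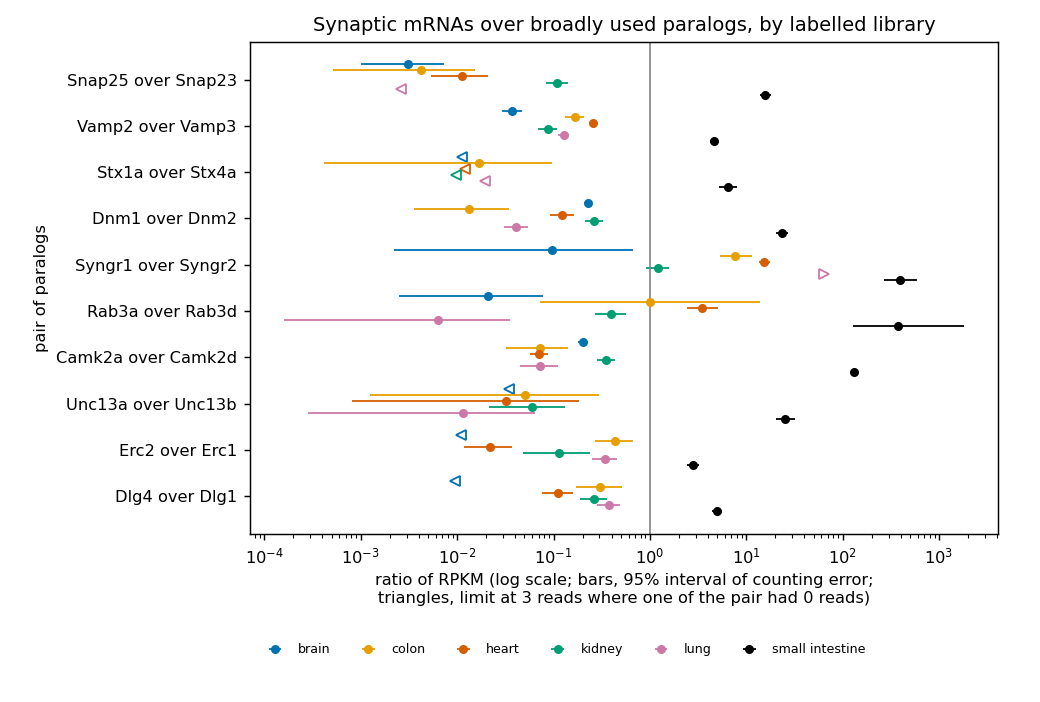
Ratio of RPKM of a synaptic mRNA to a more broadly used paralog in each library (colours, by label), on a log axis, with bars for the 95% interval of counting error and triangles for the limit that 3 reads give where one of the pair had 0 reads. The points of the small intestine-labelled library lie above 1 for all 10 pairs, from 2.81 for Erc2 over Erc1 to 392 for Syngr1 over Syngr2.

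Other mRNAs of the same pathways were examined from lists drawn up by role. Of 48 other presynaptic mRNAs found, 31 were at least 4-fold higher in the small intestine-labelled library than in each of the other 5, and of 25 other postsynaptic mRNAs 14 were, beside the 9.28% of all mRNAs tested. Syt11 had 1046 RPKM there and at most 29.3 RPKM elsewhere. Doc2a, Cplx3, Lrrtm1 and Lrrtm2 had reads only in that library. The mRNAs not called included the broadly used SNAREs Snap23, Vamp3 and Vamp8, which were lower there than in any other library, with 43.2, 217 and 33.2 RPKM against at least 121, 277 and 174 RPKM.

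Outside the small intestine-labelled library the members were seen as traces, expressed here as the percent of their RPKM in that library. The median was 0.127% in the brain-labelled library, 0.179% under the colon label, 0.990% under the heart label, 1.10% under the kidney label and 0.0260% under the lung label. Under the brain label the median member was Rab3a with 2 reads, at a counting interval of 0.0153% to 0.458%. Under the colon label it was Syn1 with 1 read (0.00452% to 0.998%). Under the lung label it was Syp with 1 read (0.000659% to 0.145%). These are intervals of single members, not of the medians. Since the medians there rest on 1 or 2 reads of a member, the brain, colon and lung labels were not ranked by them. The order also depended on the summary. The RPKM summed over the members stood at 0.507% (brain label), 1.13% (colon), 3.11% (heart), 0.765% (kidney) and 0.859% (lung). This placed the kidney label below those of heart, colon and lung. At least 10% was reached by Snap91, Dnm1 and Shank2 in the brain-labelled library, by Syn3, Shank2 and Shank3 under the colon label, by Syngr1, Vamp2, Rab3a, Snap91, Shank3 and Homer1 under the heart label, by Syn3 and Shank2 under the kidney label, and by Syn2, Shank2, Shank3 and Homer1 under the lung label. These sets differed between libraries, and no member was in all 5.

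Oligodendrocyte markers, which are made by cells of the central nervous system, were set beside these traces. The 8 markers summed to 5582 RPKM in the small intestine-labelled library and to between 12.2 and 46.0 RPKM elsewhere. Mog, with 3670 reads in the small intestine-labelled library, had 0 reads in those labelled colon, heart, kidney and lung and 1 read under the brain label, and Mobp had 0 reads in all 5. Over the 8 markers the median percent was 0.00979% under the brain label, 0.00504% under the colon label and 0.0827% under the heart label. It was 0.149% under the kidney label and 0.00403% under the lung label. All 5 medians lay below that of the synaptic mRNAs in the same library. Under the brain, colon and lung labels, 4 of the 8 markers had 0 reads, so their medians lie near the limit of detection. So do the medians of the synaptic mRNAs there, which rest on 1 or 2 reads of a member, and the comparison is weak. Other oligodendrocyte markers were not at 0, since in the kidney-labelled library Mag stood at 0.192% from 64 reads and Cnp, which other cell types also make, at 5.16% from 141 reads. Mbp had the highest percent of the list under the brain and kidney labels, at 24.1% and 13.1%. The part of reads from another library in the traces was not tested.

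**Figure D5:**
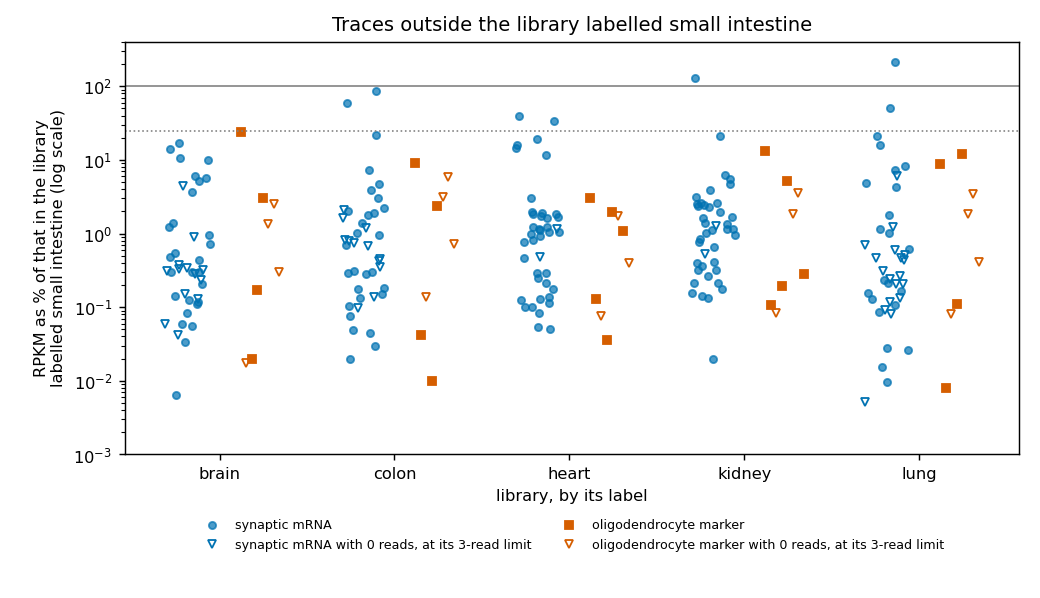
RPKM in each of 5 libraries (by label) as a percent of that in the small intestine-labelled library, on a log axis, for the synaptic mRNAs (blue) and for oligodendrocyte markers (orange), with open triangles at the limit that 3 reads give for mRNAs with 0 reads; the solid line marks 100% and the dotted line the 4-fold threshold. Shank3 in the lung-labelled and Syn3 in the kidney-labelled library lie above the solid line, at 216% and 128%.

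The kidney-labelled library, which held colon epithelial markers, also held markers of enteric neurons. Tlx2, a homeobox gene of enteric neurons, had 5 reads there and 0 in each of the other 5 libraries. Of the 10 enteric neuron markers, 7 had at least 10 reads there, 6 did in the small intestine-labelled library, 5 under the brain label and 2 or 3 in the others. Their summed density was 189 RPKM in the kidney-labelled library, 260.2 RPKM under the small intestine label and 147 RPKM under the brain label. It was between 8.12 and 61.0 RPKM in those labelled colon, heart and lung. A single marker made up 146, 193 and 117 RPKM of the sums under the kidney, small intestine and brain labels. The median marker had 3.14, 3.43 and 1.56 RPKM there. The 5 markers with at least 10 reads in the brain-labelled library were Vip with 637 reads, Ret with 226, Hand2 with 102, Prph with 98 and Ednrb with 44. Chat, the enzyme of acetylcholine synthesis, had 0 reads in both of these libraries. Of 5 markers of enteric and peripheral glia, 1 reached 10 reads under the kidney label and 1 under the brain label. Under the small intestine label 3 did.

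Traces in these gut-marked libraries are given for 6 members that were chosen after their values had been seen, as a description only. Snap25 stood at 1.94% (1.48% to 2.49%) in the kidney-labelled library and 0.111% (0.0361% to 0.260%) under the brain label. Syt1 stood at 1.01% (0.883% to 1.15%) and 0.476% (0.402% to 0.559%). Gap43 stood at 6.22% (4.44% to 8.49%) in the kidney-labelled library and had 0 reads under the brain label, and Cplx1 stood at 0.765% (0.508% to 1.11%) and also had 0 reads there. Camk2a ran the other way, with 0.155% (0.128% to 0.185%) in the kidney-labelled library and 0.304% (0.271% to 0.338%) under the brain label, and so did Slc17a7, with 0.215% (0.134% to 0.325%) and 0.431% (0.330% to 0.553%). Larger differences in this direction were found outside these 6. Syn1 stood at 0.212% under the kidney label and 5.15% under the brain label, Slc17a6 at 0.179% and 3.70%, and Snap91 at 2.62% and 17.0%. At least 1% was reached by 22 members under the kidney label and by 10 under the brain label.

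Enteroendocrine markers were also present in both gut-marked libraries. All 11 had at least 10 reads in the brain-labelled library and 10 did under the kidney label, with summed densities of 1669 and 2116 RPKM, against 8.13 to 82.2 RPKM in those labelled colon, heart and lung and 8547 RPKM under the small intestine label. Chga and Chgb, which are also made by neurons, had 426 and 664 RPKM in the brain-labelled library and 523 and 1224 RPKM under the kidney label. Sct, the secretin gene, had 208 RPKM in the brain-labelled library and 78.1 RPKM under the kidney label, and Pyy had 33.9 and 49.2 RPKM. The part of enteric neurons and of enteroendocrine cells in the member traces was not tested.

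The CDSs of the members were longer than those of all listed mRNAs, with a median of 1755 against 1320 bases, and richer in codons ending in G or C, with a median of 65.4% against 58.9%. This GC3 share ranged from 39.8% for Pclo to 83.9% for Slc32a1, and it was above the median of all mRNAs for 30 of 41 members. By role the median ran from 57.2% for transmitter synthesis and transport to 72.4% for the fusion machinery. The roles with the lowest and the highest share were therefore both presynaptic.

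Promoter windows were searched for RE1, the element bound by REST, a repressor of neuronal genes in other cell types, and for CRE, the element bound by CREB. RefSeq windows on GRCm38.p6, from 250 bases before to 50 bases after a transcript start, were found for 33 of 41 members, in 46 windows. The left arm of RE1 was searched as TTCAGCACC, the right arm as GGACAGCGC and CRE as TGACGTCA, on both strands, and the search windows of different motifs may overlap. The left arm was present for Syn1, Nlgn1 and Unc13a, beside 0.371% of all 32851 windows, and the right arm for Gad2 and Unc13a, beside 0.405%. Either arm was found in 4 of 46 member windows, beside 0.761% of all. Only 5 of all windows (0.0152%) held both arms, and Unc13a was among them. CRE was present for Syn1, beside 1.79% of all windows.

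The matched stretches are shown because they hold the only exact matches to the searched RE1 arms in these windows. Arms that differ by a letter were not searched. Each stretch reads 5′ to 3′ on the strand of the gene. Capitals mark the RE1 arms and, for Syn1, also CRE. The stretch of Syn1 covers bases -250 to -151 from the start (GRCm38.p6 chrX:20921069-20921168, minus strand), that of Nlgn1 bases -199 to -100 (chr3:26154086-26154185, minus strand) and that of Gad2 bases -201 to -102 (chr2:22622126-22622225, plus strand). That of Unc13a covers bases 4 to 33 after the start (chr8:71671725-71671754, minus strand), with both arms on the opposite strand.
Syn1: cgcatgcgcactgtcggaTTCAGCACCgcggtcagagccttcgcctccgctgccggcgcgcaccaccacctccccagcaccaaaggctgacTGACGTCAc
Nlgn1: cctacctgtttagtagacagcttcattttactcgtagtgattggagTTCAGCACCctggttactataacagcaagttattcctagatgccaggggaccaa
Gad2: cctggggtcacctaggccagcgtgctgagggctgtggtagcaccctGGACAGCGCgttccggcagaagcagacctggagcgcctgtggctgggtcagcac
Unc13a: agGCGCTGTCCgcgcccccGGTGCTGAAgc

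These 4 mRNAs had from 12.5 to 58.7 RPKM in the small intestine-labelled library. Gad2 and Nlgn1 had at most 1 read in any other library, Unc13a at most 6, and Syn1 had 68 reads under the brain label. A match of letters is not a measured binding site.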

How the data were processed

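The authors deposited RPKM values for each tissue library, with 1 row per protein-coding mRNA that is named by its Ensembl IDs and CDS bounds. Per the Methods and the submitters' processing notes, trimming used cutadapt, and STAR placed reads on the transcript with the longest CDS of each gene (GRCm39), leaving out multi-mapped reads, so reads of other isoforms outside that transcript are missed. These steps are written for other libraries of the study and were taken to hold here. Multiplied by CDS length, 100% of the values came out as whole reads (tolerance 0.01 reads), and levels and ratios were computed from these reads, of which each library had 4504853 to 10635031. An mRNA that takes many reads, such as Kri1, lowers the RPKM of all others.

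Gene symbols and coordinates come from GENCODE M39 on GRCm39, which named 18424 of 18437 mRNAs and held 18154 CDSs of the same length with a start and a stop codon, and promoters from RefSeq on GRCm38.p6. An mRNA was tested with at least 10 reads in at least 1 library. Intervals are exact binomial, conditional on the sum of both reads, and cover counting error only. With 1 library per tissue no p-value was computed, and the grouping followed the labels. Values in every library are given for the 3 highest members of each role and for members with at least 5 RPKM, or 10% of the small intestine-labelled level, in another library. The members, roles, lists and thresholds were chosen with earlier results of these data known. Read recovery and intervals were tested on simulated data. The identity of paralog proteins was not computed here. The alternatives covered the fold and read thresholds, the scaling, the depth and the value at 0. Computations used Python 3.11.15 with pandas 2.3.3, scipy 1.17.1 and numpy 2.4.6, and plots matplotlib 3.10.9.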

Additional observations from a re-analysis of the deposited data

How the results depend on the processing

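Of 83 comparisons of a result with an alternative setting, 78 stayed within 1.5 times the count or within the counting interval of the value. This tally is a weak check. Counts of 36 or more among 41 members could not rise by that factor, and thinned reads are drawn from the same reads. For the median traces the interval was that of the median member alone, not of the median. With a 2-fold and a 10-fold threshold, 38 and 31 members were called against each of the other 5 libraries, in place of 36, and with log2(RPKM + 1) 35 were, with Syn2 no longer among them. The count stayed at 36 without the reads of Kri1, with median-of-ratios size factors and with reads thinned to the lowest library total, and the members not called were the same 5 in each. At a minimum of 30 reads, 13 members were detected in the heart-labelled library in place of 27. With the sum of RPKM over members in place of the median, the trace became 0.507% in the brain-labelled library, 1.13% under the colon label, 3.11% under the heart label and 0.859% under the lung label, and fell from 1.10% to 0.765% under the kidney label, which was then no longer the highest. All 14 paralog ratios stayed within their intervals after thinning. No paired analysis was possible because each tissue label has 1 library, and no library could be left out of a group. Depth limits the low values: in the colon-labelled library, the shallowest, 3 reads of Cplx1 would give 1.66 RPKM and 3 reads of Pclo 0.0438 RPKM. The spread between animals is unknown.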
